A study of Homo sapiens with 6 samples.

Results

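KMS11 is an established human cell line from multiple myeloma, a tumour of the plasma cells that secrete antibodies. The genes described here encode proteins of the extracellular matrix and the enzymes that cut it or shed proteins from the cell surface. They were chosen by symbol, from families whose names begin with COL, LAM, MATN, OLFML, THBS, FBLN, FBN, MMP, TIMP, ADAM or ADAMTS, and 140 of the 17918 genes in the table matched. Of these, MMP24OS and MMP24-AS1-EDEM2 are an antisense and a readthrough locus of the MMP24 region, which leaves 138 genes of matrix proteins, proteases and inhibitors. RNA was sequenced from 3 libraries of cells carrying an shRNA (short hairpin RNA) that targets CRIP1, a gene for a small LIM domain protein, labelled as CRIP1 knockdown, and from 3 libraries of cells carrying a scrambled shRNA, labelled as wild type. Both groups therefore carry a hairpin, neither received any other treatment, and both were grown in RPMI medium with serum. The labels do not say how many hairpins or clones were used, nor whether the replicates are independent cultures, and every p-value below reflects the spread among these libraries alone, which may be technical.

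The extracellular matrix is built from large secreted proteins that mostly work as assemblies. Collagen chains wind into triple helices and laminins join an alpha, a beta and a gamma chain, so a cell that makes one chain without its partners need not secrete the finished molecule. Matrilins, thrombospondins, fibulins and fibrillins connect these networks, matrix metalloproteinases (MMPs) and ADAMTS enzymes cut them, tissue inhibitors of metalloproteinases (TIMPs) block those enzymes, and ADAM proteases sit in the cell membrane and release the outer domains of other membrane proteins. In the bone marrow, myeloma cells lie against a matrix that stromal cells produce in large part, and adhesion to it and proteolysis of it are a known part of the disease.

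Promoter sequences of 5 genes are shown first, since these genes carry the main results below. COL4A3 and COL4A4, which encode partner chains of basement membrane collagen and fell together, are read in opposite directions from starts that lie 419 bases apart on chromosome 2 in RefSeq (GRCh38.p14). OLFML2B and LAMB1 were among the matrix genes that fell most, and TIMP1 was nearly silent in scramble libraries and present in every knockdown library. Each line gives the 250 bases before the RefSeq start, 5′ to 3′ on the strand of the gene. The positions are chr2:227164374-227164623 on the plus strand for COL4A3, chr2:227164206-227164455 on the minus strand for COL4A4, chr1:162023870-162024119 on the minus strand for OLFML2B, chr7:108003162-108003411 on the minus strand for LAMB1 and chrX:47582186-47582435 on the plus strand for TIMP1. In the COL4A3 and COL4A4 lines, capitals mark the 82 bases that both windows hold, read from opposite strands. In the OLFML2B, LAMB1 and TIMP1 lines, capitals mark the GC box GGGCGG or its reverse complement CCGCCC.
COL4A3: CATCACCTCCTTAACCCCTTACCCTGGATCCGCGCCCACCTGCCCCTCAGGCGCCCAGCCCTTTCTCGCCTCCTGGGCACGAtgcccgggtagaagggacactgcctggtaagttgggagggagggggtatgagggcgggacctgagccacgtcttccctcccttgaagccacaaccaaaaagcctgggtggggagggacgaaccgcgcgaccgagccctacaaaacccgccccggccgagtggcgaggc
COL4A4: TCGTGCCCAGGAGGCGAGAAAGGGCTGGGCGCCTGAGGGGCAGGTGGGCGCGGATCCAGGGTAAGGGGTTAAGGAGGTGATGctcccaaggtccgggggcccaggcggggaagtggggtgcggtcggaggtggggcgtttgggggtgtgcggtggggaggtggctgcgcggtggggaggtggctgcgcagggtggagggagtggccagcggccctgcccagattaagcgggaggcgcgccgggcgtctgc
OLFML2B: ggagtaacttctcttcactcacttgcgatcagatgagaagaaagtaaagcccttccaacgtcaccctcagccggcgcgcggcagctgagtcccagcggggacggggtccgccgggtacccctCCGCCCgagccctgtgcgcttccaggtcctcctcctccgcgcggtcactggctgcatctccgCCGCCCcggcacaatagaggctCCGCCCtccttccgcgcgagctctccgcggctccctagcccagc
LAMB1: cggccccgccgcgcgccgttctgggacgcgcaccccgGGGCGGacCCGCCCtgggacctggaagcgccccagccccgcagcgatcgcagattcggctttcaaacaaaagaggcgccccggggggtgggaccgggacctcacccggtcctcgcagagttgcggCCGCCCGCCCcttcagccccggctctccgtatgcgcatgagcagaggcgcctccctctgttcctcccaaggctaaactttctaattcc
TIMP1: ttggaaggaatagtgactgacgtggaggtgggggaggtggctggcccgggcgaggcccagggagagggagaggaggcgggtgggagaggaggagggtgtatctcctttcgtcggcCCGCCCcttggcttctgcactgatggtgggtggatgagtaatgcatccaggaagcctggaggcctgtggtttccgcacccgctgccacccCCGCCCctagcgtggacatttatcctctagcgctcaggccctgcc

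A RefSeq promoter window of 300 bases, running from 250 bases before the start to 50 after, was found for 97 of the 138 genes, 40 of them tested for a change. The GC box stood in 29 of these 40 windows (72.5%), against 70.0% of the windows of all tested genes and 44.6% of all 27305 windows. By direction, 12 of 18 windows of genes that fell and 13 of 16 of genes that rose held it. The other motifs searched on both strands were TATAAA in 2 of the 40 windows (5.67% of tested genes, 12.0% of all windows), CCAAT in 11 (37.2% and 35.7%), TGCTGA in 4 (12.6% and 17.4%) and TGANTCA in 0 (4.12% and 7.76%). None of these motifs contains another. The median number of CpG pairs per window was 29.5 for the 18 genes that fell, 16.5 for the 16 that rose and 26.0 for all tested genes. These are descriptions of letters in the windows and were not tested.

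The total per library was 16971454 to 18005318 estimated counts, and the biological coefficient of variation common to all genes in edgeR came to 3.33%. CRIP1 itself stood at 2791, 3327 and 3174 TPM (transcript level corrected for gene length and scaled to the same total in each library) in scramble replicates 1 to 3, and at 127, 129 and 134 in knockdown replicates 1 to 3. This 26.2-fold decrease (edgeR quasi-likelihood test, log2 fold change -4.71, SE 0.06, adjusted p = 6.15e-22) matches the labels. Of 9 tested plasma cell markers 6 fell and 3 rose (IRF4, TNFRSF17 and CD38), beside 38.1% lower and 39.4% higher over all tested genes. The list summed to 8553 to 9008 TPM in scramble and 3932 to 4190 TPM in knockdown libraries. JCHAIN, the joining chain of secreted antibodies, made up most of that drop, with 6443 and 1789 mean TPM. Among 7 fibroblast or stromal markers in the table, DCN and THY1 had 0 counts in all libraries and PDGFRA and FAP had at most 2 in a group. PDGFRB fell, ACTA2 rose and TAGLN was not called, and the list summed to 11.0 to 11.7 TPM in scramble and 32.8 to 39.7 TPM in knockdown libraries. Endothelial markers summed to 11.2 to 12.5 TPM and 11.4 to 13.6 TPM. Erythroid markers rose in 10 of 11 tested genes, where 39.4% of all tested genes rose, and their sums went from 3.86 to 5.66 TPM to 699 to 701 TPM. Of the 12, 10 were at 0 in scramble and none in knockdown libraries, where HBB had 1 count. The erythroid genes that rose all had a mean under 10 scramble counts and passed the filter of the test through knockdown libraries. That favours a call, so the share of 10 in 11 is not a result to set against 39.4%. Megakaryocyte markers summed to 0.45 to 0.96 TPM and 1.79 to 2.27 TPM, with 2 of 3 tested genes higher. T and NK markers summed to 0.43 to 0.57 TPM and 1.31 to 1.99 TPM, and none was tested. Epithelial markers moved from 20.7 to 23.5 TPM to 90.3 to 98.1 TPM and myeloid markers from 0.94 to 1.27 TPM to 7.22 to 7.84 TPM. Neither list rose as a whole. Of 7 tested epithelial markers 5 rose, KRT7 fell from 8.91 to 5.93 mean TPM and CLDN4 was not called. Of 3 tested myeloid markers LYZ and CD33 rose and ITGAM was not called, while CD14, CSF1R, MPO and FCGR3A had at most 5 counts in a group. LYZ, CD33, ITGA2B, GP1BA, KRT18 and KRT19 also passed the filter with a mean under 10 scramble counts. The part of these markers in the changes below was not tested, and in bulk RNA fewer cells of a type and less RNA per cell cannot be told apart.

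Matrix genes changed in both directions, and most of them were silent or below the count filter. Of the 140 genes, 58 passed the filter of the main test (a minimum count of 10 in 3 libraries, scaled to library size), 67 had fewer counts, and 15 had 0 counts in all 6 libraries. Of the 58, 51 (87.9%) passed an adjusted p of 0.05, against 77.6% of all 12612 genes tested. With knockdown minus scramble as the direction, 24 rose (41.4%, against 39.4% of all genes) and 27 fell (46.6%, against 38.1%). Changes of 2-fold or more were found upward in 17 members (29.3%, against 10.0% of all genes) and downward in 15 (25.9%, against 8.06%). The median log2 fold change was -0.22 over the tested members and 0.01 over all tested genes, and the median size without sign was 1.03 against 0.41. The median of the members was the same with the 3 genes at 0 scramble counts placed at their bound. These shares describe genes that passed the filter, and 16 of the 58 passed with a mean under 10 counts in a group, 10 of them low in scramble and 6 low in knockdown. Passing the filter through the high group alone favours a large change. The 2-fold shares are therefore not a result about these families, and they were not computed for all genes without such cases. Among the 42 with at least 10 in both groups, 14 rose, 22 fell and 6 were not called. The shares over all genes under this condition were not computed, so these counts are not read as a lean in either direction.

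**Figure D1:**
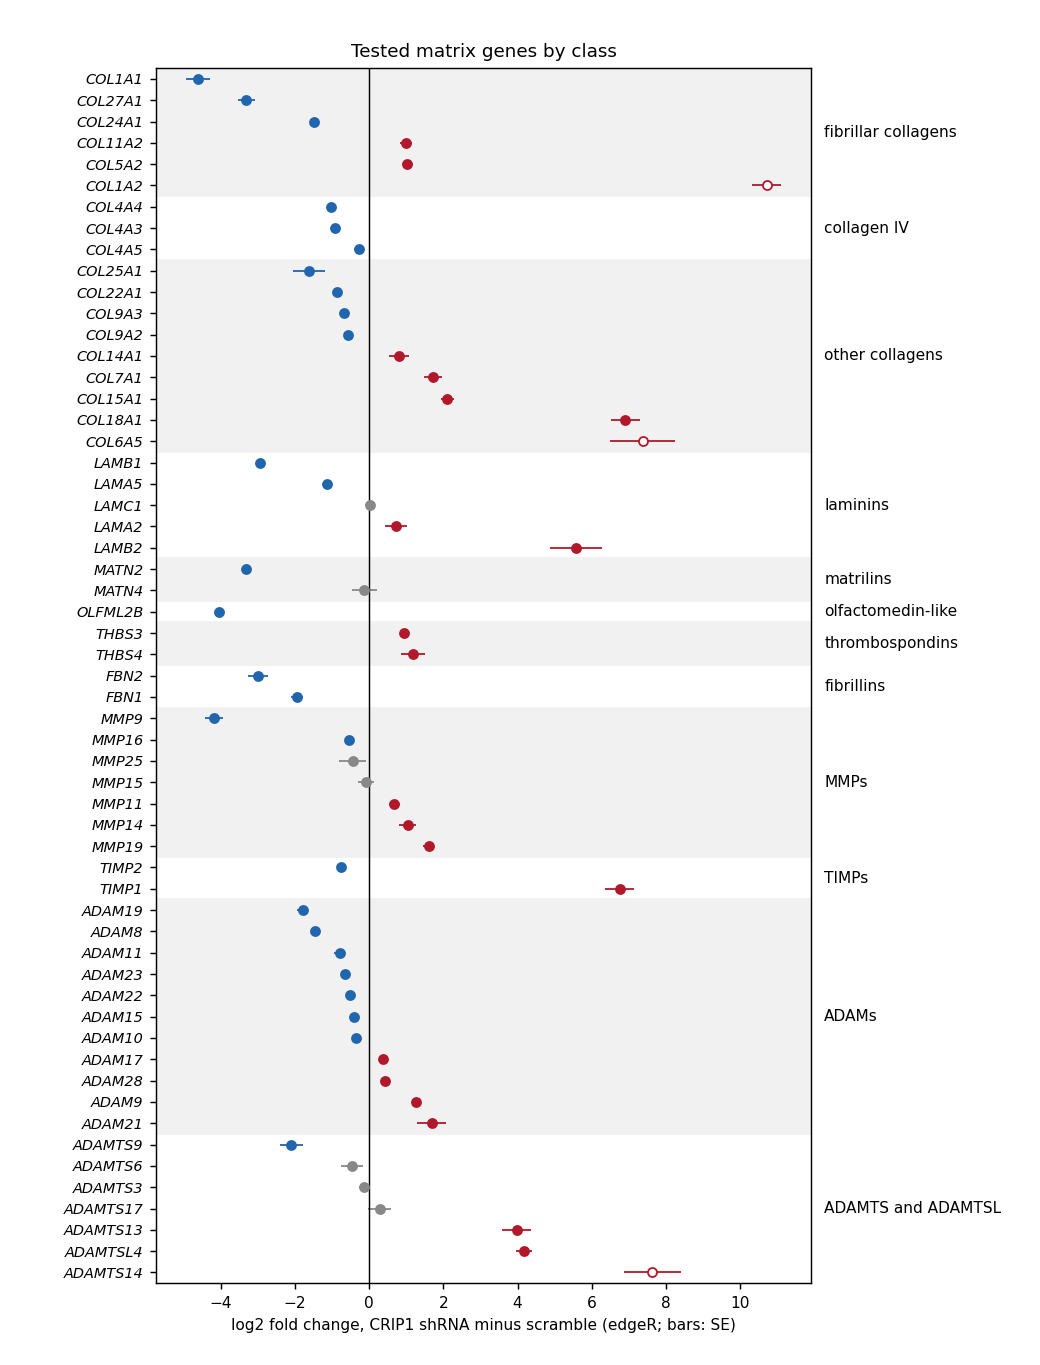
Log2 fold change (knockdown minus scramble, horizontal axis) of the 57 tested matrix proteins, proteases and inhibitors, grouped by class, with bars for the SE from edgeR. Red points rose, blue points fell and grey points were not called at an adjusted p of 0.05, and the open points are the 3 genes with 0 scramble counts, whose plotted value depends on the prior count and is no estimate of size. Most classes hold points on both sides of 0.

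The 75 structural protein genes together had a summed level of 302 ± 2.81 TPM in scramble and 112 ± 0.985 TPM in knockdown libraries (SD, n = 3 each), a ratio of 0.371 with no overlap. The exact two-sided permutation p was 0.1 (n = 3 per group), the smallest that 3 against 3 allows. The 59 MMP, ADAM and ADAMTS genes summed to 369 ± 3.19 TPM and 358 ± 4.14 TPM, a ratio of 0.970 at the same p from the exact permutation test. Individual proteases moved in both directions while their sum stayed close, and without ADAM15, their most abundant member, the log2 ratio of the sums was 0.08 in place of -0.04. The matrix protein total was carried by few genes, and without OLFML2B its log2 ratio was -0.71 in place of -1.43. OLFML2B held 43.8% of it in scramble libraries, and LAMC1 held the largest share, 30.9%, in knockdown libraries.

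**Figure D2:**
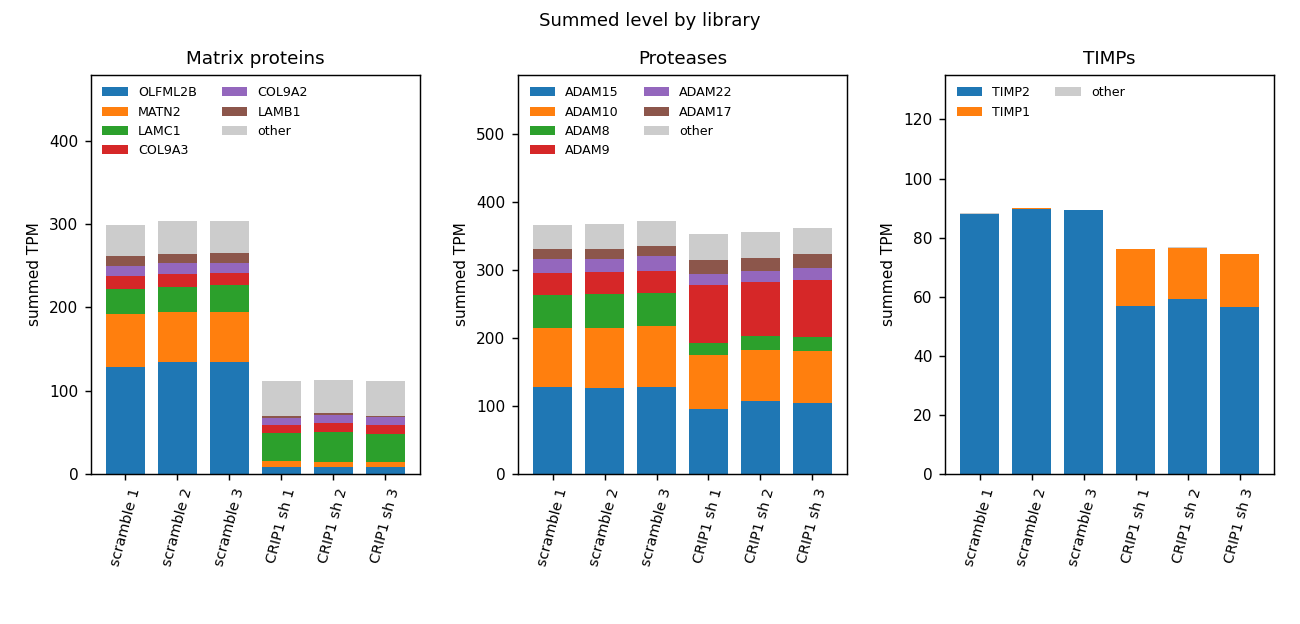
Summed TPM in each of the 6 libraries for matrix proteins, proteases and TIMPs, with the leading genes as coloured segments and all others in grey. The matrix protein bars drop from a mean of 302 to 112 TPM as the OLFML2B and MATN2 segments shrink, the protease bars stay near one height while ADAM9 widens and ADAM8 narrows, and a TIMP1 segment stands on TIMP2 in each knockdown bar.

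The 2 most abundant matrix protein genes of scramble cells both fell steeply. OLFML2B encodes a secreted olfactomedin-domain glycoprotein and lies on the minus strand of chromosome 1 at 161983192 to 162023854 (GENCODE 29, GRCh38). Its level was 129, 135 and 134 TPM in scramble and 8.66, 9.05 and 8.35 TPM in knockdown libraries, so the groups were far apart and tight. The decrease was 16.6-fold (edgeR, log2 fold change -4.06, SE 0.05, adjusted p = 2.74e-22). MATN2 encodes matrilin 2, an adaptor that links collagens and other fibrils, and stood at 62.7, 59.6 and 60.6 TPM against 7.27, 6.13 and 5.88 TPM. Every scramble library exceeded every knockdown library, with a log2 fold change of -3.33 (SE 0.06, edgeR adjusted p = 2.65e-20). The other olfactomedin-like genes, OLFML1, OLFML2A and OLFML3, had at most 6 counts in a group and were not tested. MATN4, the only other matrilin tested, stood at 0.697 ± 0.212 TPM and 0.673 ± 0.210 TPM (SD, n = 3) with overlapping libraries and was not called (log2 fold change -0.13, SE 0.33).

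Laminins are the heterotrimers that organise basement membranes, and their chains did not move as a unit. LAMB1, the beta 1 chain at 107923799 to 108003255 on the minus strand of chromosome 7, measured 12.1, 10.96 and 11.98 TPM in scramble and 1.78, 1.53 and 1.60 TPM in knockdown libraries. This was a 7.76-fold decrease (log2 fold change -2.96, SE 0.09, edgeR adjusted p = 4.33e-17). LAMA5, the alpha 5 chain, measured 4.28, 4.21 and 4.51 TPM against 2.02, 2.24 and 2.15 TPM, a log2 fold change of -1.15 (SE 0.07). Both chains were lower in each knockdown library than in any scramble library. LAMC1, the gamma 1 chain that most laminins share, measured 30.9, 29.9 and 31.8 TPM against 33.8, 36.0 and 34.3 TPM. Its TPM ranges did not overlap, but on library-scaled counts its log2 fold change was 0.03 (SE 0.04, edgeR adjusted p = 0.473) and it was not called. On the log2(TPM + 1) scale of limma, where the median of all tested genes lies at 0.12, LAMC1 was called higher at 0.16. Alpha 5, beta 1 and gamma 1 form one known laminin, and gamma 1 was thus present without a call beside 2 partner chains that fell.

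The beta 2 chain moved opposite to beta 1, at a far lower level. LAMB2 had 0, 0 and 1 counts in scramble and 20, 35 and 16 in knockdown libraries. The ratio of library-scaled counts was 68.8 with an exact 95% binomial interval of 12.0 to 2757, which covers counting error only. LAMA2, the alpha 2 chain of muscle laminin, rose from 0.117 to 0.207 mean TPM (log2 fold change 0.72, SE 0.30, edgeR adjusted p = 0.0351). That call was lost when scramble replicate 1 or 2 or knockdown replicate 1 or 3 was left out, at log2 fold changes of 0.55, 0.73, 0.73 and 0.65. The LAMA2 call was also lost with the DESeq2 Wald test (0.73), no count filter (0.71) and a 1.2-fold threshold (0.72). LAMA3 and LAMB3, laminin chains of epithelia, had 14 to 32 counts in a group and were not tested. Over all 12 laminin genes the summed level was 47.5 ± 1.69 TPM in scramble and 39.5 ± 1.30 TPM in knockdown libraries (SD, n = 3), and without LAMC1 the log2 ratio was -1.79 in place of -0.27.

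The 44 collagen genes were of low abundance in these cells, with a summed level of 54.5 ± 1.93 TPM in scramble and 47.2 ± 0.448 TPM in knockdown libraries. Of the 18 tested, 8 rose and 10 fell, and none was left uncalled, where 77.6% of all tested genes were called. COL1A1, COL1A2, COL6A5, COL18A1 and COL25A1 had a mean under 10 counts in a group. Their passing the filter through the other group favours a call, so the full share is not a result about collagens. Type I collagen, the main fibril of bone, had one chain higher in each group. COL1A1, named after its values were seen, measured 1.07, 1.27 and 1.03 TPM in scramble and 0.02, 0.06 and 0.08 TPM in knockdown libraries, which is 189 against 8 counts per group. It fell 24.7-fold (log2 fold change -4.63, SE 0.32, edgeR adjusted p = 3.6e-11). COL1A2, on the plus strand of chromosome 7 at 94394561 to 94431232, had 0 counts in each scramble library and measured 5.17, 4.11 and 4.56 TPM in knockdown libraries, which is 660 counts. Taking 3 counts as the group's floor, it was at least 213-fold higher (edgeR adjusted p = 2.02e-14). In neither group were both chains at 1 TPM or more.

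The other fibrillar collagens also divided by gene. COL27A1 fell from 1.89 to 0.227 mean TPM (log2 fold change -3.32, SE 0.23) and COL24A1 from 2.87 to 1.14 mean TPM (-1.48, SE 0.11), and these genes encode the minor fibrillar chains that stand apart from the classical group in sequence. COL5A2 and COL11A2, chains that nucleate or limit fibrils, rose from 0.827 to 1.88 and from 0.680 to 1.65 mean TPM, with log2 fold changes of 1.02 (SE 0.15) and 1.00 (SE 0.16). None of these 4 genes had overlapping groups, which describes their libraries only, since the share of such genes over the whole table was not computed. COL3A1, COL2A1 and COL5A1 had at most 4 counts in a group. The summed level of the 11 fibrillar genes was 7.44 ± 0.254 TPM in scramble and 9.77 ± 0.593 TPM in knockdown libraries (SD, exact permutation p = 0.1, n = 3 each), but the higher sum rested on COL1A2, since without it the log2 ratio was -0.53 in place of 0.39.

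Type IV collagen forms the sheet of basement membranes, and its alpha 3, alpha 4 and alpha 5 chains assemble into one molecule. All 3 were expressed and all 3 were called lower in the main test, although many alternatives given below lost the COL4A5 call. COL4A1 and COL4A2, the chains found in nearly every basement membrane, had 1 and 15 counts in knockdown and 0 in scramble libraries. COL4A3 measured 3.70, 3.88 and 4.13 TPM in scramble and 2.00, 1.88 and 1.66 TPM in knockdown libraries (log2 fold change -0.93, SE 0.11, edgeR adjusted p = 2.24e-07). COL4A4 measured 3.54, 3.59 and 3.74 TPM against 1.94, 2.02 and 2.12 TPM (log2 fold change -1.03, SE 0.09, adjusted p = 1.38e-09). These neighbours, whose upstream windows share the capitals printed above, were near each other in level in both groups and fell by like amounts, with no overlap between groups. COL4A5, on the X chromosome, measured 1.75, 2.13 and 2.25 TPM against 1.98, 1.79 and 1.96 TPM, and these groups overlapped. Its small decrease (log2 fold change -0.29, SE 0.12, adjusted p = 0.0285) was lost when scramble replicate 2 or 3 or knockdown replicate 2 was left out, at -0.26, -0.23 and -0.24. The call was also lost with upper-quartile scaling (-0.25), the DESeq2 Wald test (-0.29), a 1.2-fold threshold (-0.29) and the GC trend removed (-0.23). On the log2(TPM + 1), log2(TPM + 0.1) and log2(FPKM + 1) scales COL4A5 was at -0.06, -0.09 and -0.07 and was not called.

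**Figure D3:**
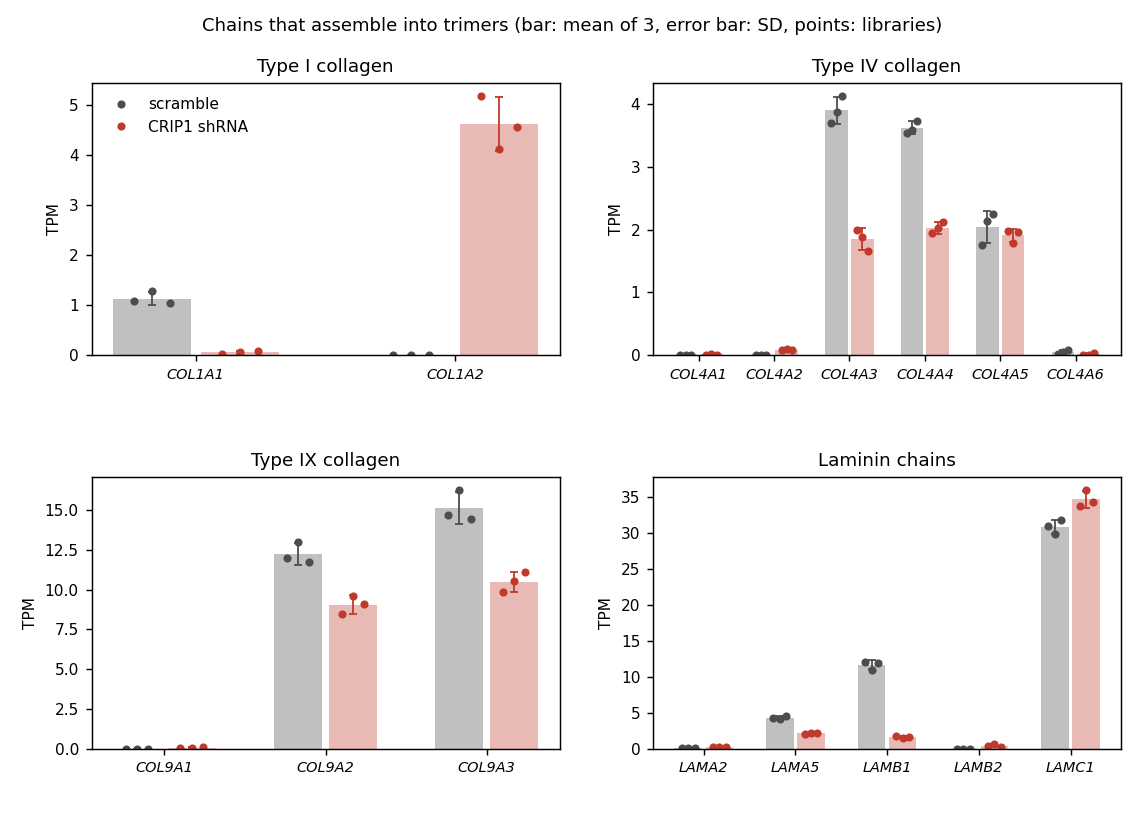
TPM of the chains of type I, type IV and type IX collagen and of the expressed laminin chains, with bars for the mean of 3 libraries, error bars for the SD and a point for each library (grey scramble, red knockdown). COL1A1 and COL1A2 occupy opposite groups, COL4A3 and COL4A4 fall side by side, and LAMB1 falls beside a gamma chain, LAMC1, that was not called.

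Collagens that decorate fibrils fell in part. COL9A2 and COL9A3, chains of cartilage type IX collagen, were the most abundant collagens of the cells. COL9A3 measured 14.7, 16.3 and 14.5 TPM in scramble and 9.84, 10.6 and 11.1 TPM in knockdown libraries (log2 fold change -0.67, SE 0.08, edgeR adjusted p = 2.66e-07). COL9A2 measured 12.0, 13.02 and 11.7 TPM against 8.47, 9.63 and 9.10 TPM (-0.57, SE 0.08), and neither gene's groups overlapped. The remaining chain, COL9A1, had 0 counts in scramble and 5 in knockdown libraries. COL22A1, which is known from tissue junctions, fell from 8.45 to 5.16 mean TPM (-0.86, SE 0.06). COL14A1 rose from 0.143 to 0.283 mean TPM (0.80, SE 0.28, adjusted p = 0.0152), a call that was lost without scramble replicate 1 or knockdown replicate 1, at 0.71 and 0.72. The DESeq2 Wald test also lost the COL14A1 call, at 0.80.

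COL15A1 and COL18A1, the proteoglycan collagens of the basement membrane zone, both rose. COL18A1, the precursor of endostatin, had 0, 0 and 2 counts in scramble and 92, 108 and 111 in knockdown libraries, a ratio of 150 (exact 95% binomial interval 41.2 to 1246). COL15A1 rose from 0.523 to 2.49 mean TPM (log2 fold change 2.11, SE 0.17). COL6A5, a chain of beaded microfilaments, had 0 counts in scramble and 65 in knockdown libraries and was at least 21.0-fold higher. COL7A1, the collagen of anchoring fibrils in skin, rose from 0.160 to 0.587 mean TPM (1.72, SE 0.23). COL25A1, a transmembrane collagen, was called lower at 0.393 and 0.137 mean TPM (-1.62, SE 0.43, adjusted p = 0.00200), although its groups overlapped, and without knockdown replicate 2 the value was -2.52.

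Among the linking glycoproteins, thrombospondins rose and fibrillins fell. THBS3 measured 3.45, 3.70 and 4.12 TPM in scramble and 8.43, 7.81 and 8.24 TPM in knockdown libraries (log2 fold change 0.94, SE 0.09, edgeR adjusted p = 1.59e-08). THBS4 rose from 0.290 to 0.723 mean TPM (1.18, SE 0.33, adjusted p = 0.00305). Both encode pentameric thrombospondins, whereas the trimeric THBS1 and THBS2 had 1 to 14 counts in a group and were not tested. FBN1 and FBN2 encode the core of elastic microfibrils. FBN1 measured 0.95, 0.88 and 1.02 TPM against 0.29, 0.23 and 0.29 TPM (-1.96, SE 0.16), and FBN2 fell from 0.510 to 0.0733 mean TPM (-3.00, SE 0.27). Fibulins here means the 4 genes with FBLN symbols, whose proteins bind these microfibrils. These genes had at most 14 counts in a group, and none was tested. EFEMP1 and EFEMP2, fibulins under other symbols, were counted among the other matrix glycoproteins, and EFEMP2 was tested there and not called.

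**Figure D4:**
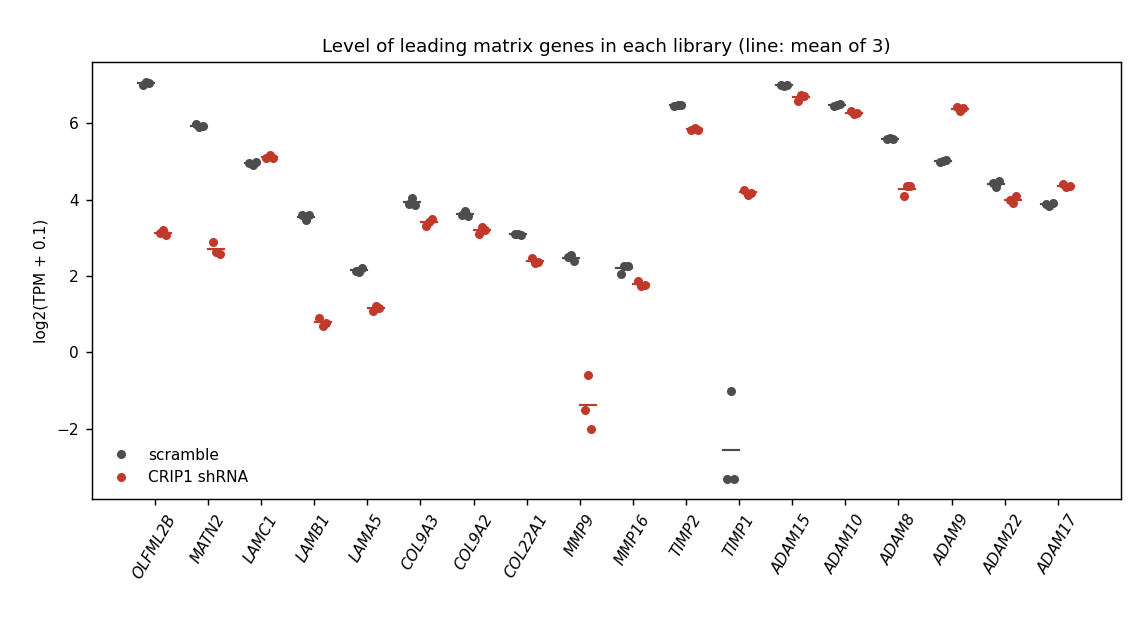
Level of 18 leading matrix and protease genes in each library, as log2(TPM + 0.1), with points for libraries and a line for the mean of 3 (grey scramble, red knockdown). OLFML2B, MATN2, LAMB1 and MMP9 are separated most widely downward and TIMP1 upward, and the 3 libraries of a group lie close together except for the low values of MMP9 and TIMP1.

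Matrix metalloproteinases were scarce, with MMP9, MMP16, MMP11 and MMP19 the only ones of 19 above 1.16 mean TPM in a group, and the most abundant member differed between the groups. MMP9, the gelatinase B that degrades denatured and basement membrane collagen, lies on the plus strand of chromosome 20 at 46008908 to 46016561. It measured 5.55, 5.73 and 5.19 TPM in scramble and 0.25, 0.57 and 0.15 TPM in knockdown libraries, an 18.2-fold decrease (log2 fold change -4.19, SE 0.24, edgeR adjusted p = 2.56e-12). MMP19, a soluble enzyme with basement membrane substrates, rose from 1.04, 1.25 and 1.29 TPM to 4.09, 4.22 and 3.55 TPM (1.60, SE 0.16, adjusted p = 1.02e-08). MMP9 held 35.7% of the summed MMP level in scramble libraries, and MMP19 held 27.3% in knockdown libraries. The sum itself was 15.4 ± 0.550 TPM and 14.5 ± 0.864 TPM (SD, exact permutation p = 0.2, n = 3 each), a difference that did not reach the smallest p of this design.

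The membrane-bound MMPs, which act at the cell surface, were split. MMP14, the activator of pro-gelatinase A, rose from 0.507 to 1.16 mean TPM (log2 fold change 1.04, SE 0.23, edgeR adjusted p = 0.000336). MMP16 fell from 4.51 to 3.37 mean TPM (-0.55, SE 0.07). MMP15 and MMP25 were not called at -0.08 (SE 0.22) and -0.45 (SE 0.36), with overlapping groups. MMP17, anchored by a lipid, had 0 counts in scramble and 6, 13 and 8 in knockdown libraries, at least 8.73-fold higher against the floor, and lay below the count filter. MMP11, a soluble MMP that the furin family activates inside the cell, rose from 1.99 to 3.49 mean TPM (0.68, SE 0.16). Of the 19 MMP genes, 4 had 0 counts everywhere, among them the stromelysins MMP3 and MMP10. MMP2, the gene of gelatinase A, is not among the 19, so its level is not known here.

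The inhibitors of these enzymes changed in opposite directions. TIMP1, on the plus strand of the X chromosome at 47582313 to 47586789, had 0, 2 and 0 counts in scramble and 97, 91 and 91 in knockdown libraries, or 19.1, 17.5 and 17.8 TPM. The ratio of library-scaled counts was 135, with an exact 95% binomial interval of 37.1 to 1122. TIMP2, which both inhibits MMPs and helps MMP14 to activate gelatinase A, measured 88.1, 89.6 and 89.3 TPM against 56.9, 59.2 and 56.6 TPM. Its log2 fold change was -0.76 (SE 0.04, edgeR adjusted p = 2.35e-13), with no overlap. TIMP3 had 5 counts in scramble and 1 in knockdown libraries, and TIMP4 had none. TIMP2 was the more abundant in both groups, and the summed inhibitor level was lower in knockdown libraries, at 75.7 ± 1.17 TPM against 89.2 ± 0.955 TPM (SD, n = 3 each).

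The ADAM genes were by far the most abundant proteases of these families, at 350 ± 2.83 TPM in scramble and 334 ± 4.52 TPM in knockdown libraries. All 11 tested members were called, 4 higher and 7 lower, beside 77.6% of all tested genes. ADAM21 had a mean under 10 scramble counts and passed the filter through knockdown libraries, which favours a call. The full share is therefore not a result about ADAM genes. ADAM9, a widely expressed sheddase, had the largest gain in level. It measured 31.6, 32.4 and 32.7 TPM in scramble and 85.9, 79.9 and 84.1 TPM in knockdown libraries (log2 fold change 1.25, SE 0.04, edgeR adjusted p = 2.33e-16). ADAM8, a sheddase of leukocytes, went the other way, from 48.5, 49.2 and 47.7 TPM to 16.9, 20.5 and 20.5 TPM (-1.46, SE 0.06, adjusted p = 8.19e-15). Neither gene's groups came near each other. ADAM19 fell from 2.03 to 0.647 mean TPM (-1.80, SE 0.15). ADAM15, the most abundant protease gene of the set, measured 128, 127 and 128 TPM against 96.7, 107 and 105 TPM (-0.42, SE 0.04, adjusted p = 1.09e-08), and removing a trend with GC content reduced this to -0.25.

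ADAM10 and ADAM17 are the main sheddases of Notch and of tumour necrosis factor, and they moved in opposite directions by small amounts. ADAM10 measured 86.9, 88.6 and 90.6 TPM in scramble and 79.4, 75.7 and 76.7 TPM in knockdown libraries (log2 fold change -0.36, SE 0.04, edgeR adjusted p = 1.16e-08), and -0.20 on the log2(TPM + 1) scale. ADAM17 measured 14.6, 14.2 and 14.95 TPM against 21.0, 19.96 and 20.6 TPM (0.36, SE 0.05, adjusted p = 2.33e-06), and 0.22 once the GC trend was taken out. Of the exonic bases of ADAM17, 28.5% overlap IAH1 on the opposite strand, and the counting is not stated to use strand, so reads there cannot be told apart. IAH1 itself stood at 24.1 and 23.5 mean TPM. ADAM28 rose from 4.17 to 5.97 mean TPM (0.42, SE 0.10), or 0.27 with the GC trend removed, and ADAM21, best known from testis and with a pseudogene copy that could share its reads, rose from 0.197 to 0.710 mean TPM (1.68, SE 0.38). ADAM11, ADAM22 and ADAM23 lack an active protease site and serve as adhesion or receptor proteins. All 3 fell, with log2 fold changes of -0.80 (SE 0.15), -0.53 (SE 0.05) and -0.66 (SE 0.06).

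The secreted ADAMTS enzymes and ADAMTS-like proteins were the scarcest class with tested members after the fibrillins in scramble libraries, and their summed level was 3.54 ± 0.129 TPM there and 9.09 ± 0.587 TPM in knockdown libraries (SD, exact permutation p = 0.1, n = 3 each). Without ADAMTSL4 the log2 ratio of the sums was 0.54 in place of 1.36. ADAMTSL4, a protein without protease activity that binds fibrillin microfibrils, measured 0.16, 0.29 and 0.21 TPM in scramble and 4.26, 4.49 and 4.06 TPM in knockdown libraries (log2 fold change 4.17, SE 0.21, edgeR adjusted p = 2.55e-13). ADAMTS13, the enzyme that cleaves von Willebrand factor, rose from 0.0533 to 1.11 mean TPM (3.98, SE 0.39). ADAMTS14, which trims the amino end of fibrillar procollagen, had 0 counts in scramble and 78 in knockdown libraries and was at least 25.2-fold higher. ADAMTS3, an enzyme of the same kind, measured 1.71 and 1.67 mean TPM with overlapping groups and was not called (-0.15, SE 0.13). ADAMTS9, a protease of versican, fell from 0.400 to 0.103 mean TPM (-2.10, SE 0.31). ADAMTS6 and ADAMTS17 were not called at -0.47 (SE 0.29) and 0.28 (SE 0.31), and ADAMTS6 was called at -0.74 when scramble replicate 1 was left out.

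Genes that work with the matrix were described from lists. Of 33 matrix receptors, 26 were tested, 14 rose, 7 fell and 5 were not called, with a median log2 fold change of 0.31. Over all tested genes 39.4% rose, 38.1% fell and the median was 0.01, and each list below stands against the same shares. CD44, ITGA5, ITGB3, GP6 and MRC2 had a mean under 10 scramble counts. Passing the filter through the high group favours a call. Each list below also holds such genes, among them RHBDF1, TGM2, NTN4 and PLAU low in scramble and LOXL4 and SPOCK1 low in knockdown. The shares and medians of the lists are therefore not a result about their genes. ITGB5, the most abundant integrin gene of the list in scramble libraries, fell from 208 to 118 mean TPM (log2 fold change -0.95, SE 0.04), ITGB8 from 9.68 to 4.37 (-1.29, SE 0.06) and ITGA4, the alpha chain of the VLA-4 receptor for fibronectin and VCAM1, from 37.9 to 23.0 (-0.82, SE 0.04). ITGA5, the alpha chain of another fibronectin receptor, rose from 0.267 to 3.81 mean TPM (3.91, SE 0.21). Fibronectin, FN1, rose from 1.04 to 2.35 mean TPM (1.05, SE 0.13), and was named after its values were seen. Of 17 partners of ADAM10 and ADAM17, all were tested, 4 rose, 12 fell and 1 was not called (median -0.28), where 38.1% of all tested genes fell. Among the tetraspanins that escort ADAM10, TSPAN15 fell from 14.0 to 2.05 mean TPM (-2.89, SE 0.15) and TSPAN33 from 118 to 92.0 mean TPM (-0.51, SE 0.04). NCSTN, a subunit of the gamma-secretase that cuts after ADAM10, rose from 96.8 to 204 mean TPM (0.95, SE 0.04), and PDIA6, a disulfide isomerase of the endoplasmic reticulum, fell from 609 to 453 mean TPM (-0.57, SE 0.03).

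Collagen is hydroxylated, folded, exported and cross-linked by dedicated proteins. Of 32 such genes measured, 28 were tested, 9 rose, 15 fell and 4 were not called (median -0.33), beside 39.4% higher and 38.1% lower over all tested genes. PLOD1, a lysyl hydroxylase, fell from 28.5 to 14.6 mean TPM (log2 fold change -1.09, SE 0.06) and PPIB, a collagen folding isomerase, from 1073 to 742 (-0.67, SE 0.04). MIA2, which helps to export bulky cargo from the endoplasmic reticulum, rose from 25.9 to 79.4 mean TPM (1.45, SE 0.05). TGM2, a cross-linking transglutaminase, had 1 count in scramble and 429 in knockdown libraries, a ratio of 416 (exact 95% binomial interval 74.2 to 16465). Of 57 other matrix glycoproteins and proteoglycans measured, 22 were tested, 12 rose, 5 fell and 5 were not called (median 0.55, same background). TNXB, tenascin X, rose from 0.190 to 3.66 mean TPM (4.05, SE 0.17) and RELN, reelin, from 0.650 to 2.67 (1.90, SE 0.11), while HAPLN3, a hyaluronan link protein, fell from 9.0 to 1.38 (-2.83, SE 0.16). MFAP1, listed by its microfibril name but known as a nuclear splicing factor, rose from 59.8 to 102 mean TPM (0.64, SE 0.05). Of 30 other proteases and inhibitors, 16 were tested, 7 rose, 8 fell and 1 was not called (median -0.21, same background). The lysosomal cathepsins were divided, with CTSB up from 122 to 218 and CTSS from 98.7 to 159 mean TPM (0.70, SE 0.04, and 0.55, SE 0.04) and CTSL down from 171 to 117 (-0.66, SE 0.04). PCSK7, a furin-type convertase, fell from 15.6 to 9.88 mean TPM (-0.87, SE 0.06).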

How the data were processed

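The titles of the 6 samples gave the group and replicate number of each. Libraries were made from total RNA with a SMARTer mRNA kit, per the labels' protocols. The deposited table holds, for each gene and library, estimated counts, TPM and FPKM, per the file headers. RSEM 1.2.8, Bowtie2 2.2.5, HISAT2 2.1.0 and GRCh38.p13 are listed in the submitters' processing notes with no roles, and no strand setting is given in the sources used here. FPKM and TPM values were used as deposited by the authors.

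Estimated counts were rounded and tested with edgeR 4.0.16 (R 4.3.3): filterByExpr at a minimum count of 10, TMM scaling, group alone as design, quasi-likelihood F test, Benjamini-Hochberg adjustment over 12612 genes and a threshold of 0.05. The SE was taken as the size of the change over the root of F. TPM ratios lie a little above these folds, as the median of all tested genes on the log2(TPM + 1) scale was 0.12. Genes at 0 in a group are given as a bound that takes 3 counts as the group's floor, those with 1 to 3 as a ratio with an exact 95% interval. Mean chi-square per gene between libraries of a group was 1.62 to 4.15, so none was treated as a repeat deposit. The fit was tested on simulated data. Positions come from GENCODE 29 (139 of 140 matched) and promoters from RefSeq.

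The members and lists were chosen with earlier results of these data known. The rule for named genes took called members of at least 2-fold change and 5 TPM, and in each class the most abundant, the most changed and the smallest p, members at 0 in one group with at least 5 counts in every library of the other, and 4 genes of smallest p per list. Members outside it were named after their values were seen. Alternatives were the replicate block, other scalings (DESeq2 1.42.0 size factors, upper quartile), the DESeq2 Wald test, no filter or at least 50 counts, a prior count of 0.5, limma 3.58.1 on log2 FPKM or TPM (genes at 1 or more in 3 libraries), a 1.2-fold threshold, a GC trend removed by loess (span 0.5), and each library left out.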

Additional observations from a re-analysis of the deposited data

How the results depend on the processing

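Over the 58 tested members and the alternatives, 933 of 968 values kept direction and call, 22 lost the call (COL14A1, COL4A5, LAMA2 and MMP24OS), 4 gained one (ADAMTS6 and LAMC1) and 9 reversed, all in the uncalled LAMC1, MATN4 and MMP15. For 50 members this held in every alternative in which they were tested, and the stricter filters left out some members. The count of members that rose, 24, was 14 with at least 50 counts and 13 with limma on log2(FPKM + 1), both of which test fewer members. With at least 50 counts 24 members fell. The 17 that rose 2-fold or more were 9 and 5 in those settings, 7 with log2(TPM + 1) and 11 with log2(TPM + 0.1). The 15 that fell 2-fold or more were 5 with log2(FPKM + 1) and 7 with log2(TPM + 1), scales on which a pseudocount reduces low genes. Leaving out a library gave log2 fold changes of 0.00 to 0.05 for LAMC1, -0.37 to 0.05 for MATN4 and -0.26 to 0.13 for MMP15. MATN4 was 0.04 with the GC trend removed, and MMP15 was 0.10 there, 0.02 with log2(TPM + 1) and 0.03 with log2(TPM + 0.1). Without the most abundant member, the log2 ratio of summed TPM was -0.53 for fibrillar collagens, 0.03 for MMPs, 6.74 for TIMPs, 0.06 for ADAMs and 0.08 for proteases. It kept its sign but moved by over 1.5 times for laminins (-0.27 to -1.79), matrilins (-3.10 to -0.05), olfactomedin-like genes (-3.91 to -0.54), ADAMTS genes (1.36 to 0.54), fibulins (-0.11 to -1.43), other collagens (-0.25 to -0.08), all collagens (-0.21 to -0.10) and matrix proteins (-1.43 to -0.71). On counts scaled to library totals it was 0.15 for fibrillar collagens, -0.24 for MMPs, -0.61 for TIMPs, 0.90 for ADAMTS genes and -0.08 for proteases. For fibulins it was 0.02 on counts scaled to library totals and -0.49 to 0.19 with a library left out. Of 17 other glycoproteins called, those that fell went from 5 to 3 on the FPKM and TPM scales and against a 1.2-fold change, and sheddase partners that fell went from 12 to 7 against a 1.2-fold change. With the replicate block, 24 members rose and 27 fell, and no call of a member changed. The numbers did not pair the libraries (correlations of deviations 0.0455, -0.00887 and -0.0135). With no count filter 31 members rose and 29 fell, 24 and 17 of them by 2-fold or more. At this depth the members below the filter rest on few counts, and 12324 of 12612 tested genes had a GC value.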

Other observations

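Some matrix genes below the count filter had groups that did not overlap, and those given here were picked after their values were seen. Others with such groups, among them LAMA3, LAMB3, ADAMTS12, ADAMTSL5 and FBLN1, are not listed here. The share of such genes over the whole table was not computed, so the separation does not mark the picked genes out. COL21A1, a collagen that associates with fibrils, had 0, 1 and 0 counts in scramble and 11, 9 and 6 in knockdown libraries, a ratio of 25.2 (exact 95% binomial interval 4.14 to 1033, counting error only). COL11A1, the partner of COL11A2 in type XI collagen, had 1, 1 and 0 against 9, 11 and 3 counts, a ratio of 11.1 (2.75 to 97.6). COL6A6, a chain of type VI collagen, had 1, 1 and 0 against 4, 9 and 4 counts, a ratio of 8.24 (1.96 to 73.5). COL4A2 had 0 counts in scramble and 4, 6 and 5 in knockdown libraries, at least 4.85-fold higher. ADAMTS15, a protease of hyalectans, went the other way, with 6, 5 and 6 counts in scramble and 2, 2 and 1 in knockdown libraries. All of these lie at a mean of 0.397 TPM or less in a group.

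MMP24OS, the antisense locus, stood at 12.5, 14.5 and 13.3 TPM in scramble and 18.9, 19.3 and 18.6 TPM in knockdown libraries (log2 fold change 0.36, SE 0.09, edgeR adjusted p = 0.000821). MMP24 itself had 1, 6 and 4 against 6, 4 and 3 counts. The call of MMP24OS was lost against a 1.2-fold change and with the GC trend removed, at 0.17.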
